A study of Mus musculus with 26 samples.

Results

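M-ATAC, the accessibility assay in which transposed DNA is bisulfite converted so that methylation can be read from the same fragments, was compared with ATAC made with the commercial Nextera transposase. The peak lists of M-ATAC replicates 1 to 4 and of ATAC replicates 1 and 2 were used, 6 of the 26 samples in the series. Repeated summits of a peak were reduced to distinct regions, and overlapping regions of the 6 lists were joined into 50709 regions. Of these, 767 regions were held by all 4 M-ATAC lists and neither ATAC list (M-ATAC only), 1051 by both ATAC lists and no M-ATAC list (ATAC only) and 12877 by all 6 lists. The remaining 36014 regions were held by some lists of an assay and not by others.

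All 6 libraries came from nuclei of untreated KH2 cells, a mouse embryonic stem cell line grown with LIF on irradiated feeder cells that were taken out by pre-plating before harvest. The groups differed in several ways at once: M-ATAC used a Tn5 loaded with methylated adaptors, oligonucleotide replacement with gap repair, a bisulfite step, a uracil-tolerant polymerase for amplification and alignment with Bismark, whereas ATAC used Nextera Tn5, no conversion, another polymerase mix and bowtie2. Their effects cannot be told apart between these groups. M-ATAC-NC, 2 libraries of methylated-adaptor Tn5 taken before conversion, served as a further control. By the paper's methods they are aliquots of the tagmented M-ATAC DNA, so they are not independent of M-ATAC. The labels do not say which M-ATAC replicate each came from. CTCF binding came from 2 CTCF ChIP lists (Nextera adaptors) and 2 CTCF M-ChIP lists (methylated adaptors), and expression from a table of TPM merged over replicates. The labels do not say that the libraries of a group came from separate cultures, so each p-value measures only the spread between these libraries, which may be technical.

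ATAC-type assays use Tn5, a transposase that cuts and tags DNA where nucleosomes leave it exposed, so that reads pile up at active promoters, enhancers and insulators. CTCF is the zinc-finger protein that occupies insulators and loop anchors, where it keeps a short stretch of DNA open. Bisulfite turns unmethylated cytosine into uracil, read as thymine, and leaves methylated cytosine as it is, so a converted read carries fewer distinguishing bases than an unconverted read. Promoters of many mouse genes lie in CpG islands, which are GC-rich and mostly unmethylated.

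The adaptor strand below is the designed part that separates the assays, printed from 5′ to 3′ with its methylated cytosines in capitals. All 6 of its cytosines are methylated, so that conversion leaves them as C.
Tn5mC-Apt1: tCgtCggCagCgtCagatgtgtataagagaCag

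Genomic sequence is shown for 4 regions on which later results turn, in mm10 (GRCm38) on the plus strand, with CpG dinucleotides in capitals. The first and second are the strongest M-ATAC only regions, the third lies at the summit of a region in all 6 lists that resembles both, and the fourth lies at the summit of the strongest ATAC only region.
M-ATAC only, chr6:49236451-49236610: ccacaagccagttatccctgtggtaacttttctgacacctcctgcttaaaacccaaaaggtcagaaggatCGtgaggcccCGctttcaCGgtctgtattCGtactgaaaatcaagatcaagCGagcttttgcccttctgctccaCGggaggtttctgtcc
M-ATAC only, chr7:130834496-130834641: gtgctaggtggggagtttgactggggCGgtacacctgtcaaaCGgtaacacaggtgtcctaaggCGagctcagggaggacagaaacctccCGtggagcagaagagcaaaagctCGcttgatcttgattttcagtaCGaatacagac
All 6 lists, chr12:78350931-78351050: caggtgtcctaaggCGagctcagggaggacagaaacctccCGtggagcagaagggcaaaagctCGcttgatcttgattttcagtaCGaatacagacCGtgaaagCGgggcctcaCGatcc
ATAC only, chr1:68304619-68304738: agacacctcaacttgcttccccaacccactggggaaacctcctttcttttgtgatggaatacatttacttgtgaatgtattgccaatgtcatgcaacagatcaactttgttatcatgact

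How the assays shared regions was asked first. Regions in all 6 lists made up 25.4% of the joined regions, M-ATAC only regions 1.51% and ATAC only regions 2.07%. A larger part lay in the list of a lone library, with 10824 regions in 1 M-ATAC list and no ATAC list and 5365 in 1 ATAC list and no M-ATAC list. Of the regions in both ATAC lists, 12877 were in all 4 M-ATAC lists and 2971 in 3 of them. The classes grew when fewer lists were asked for: M-ATAC only regions numbered 1241, 1217, 1214 and 2149 without M-ATAC replicates 1, 3 and 4 and ATAC replicate 2, and ATAC only regions 5023 and 2755 without ATAC replicates 1 and 2. The share of joined regions held by both lists of a pair was 60.1% for the ATAC pair, 59.4% for M-ATAC 1 and 2 and 60.3% for M-ATAC 3 and 4. It was lower, 52.1% to 55.2%, in the other 4 pairs of M-ATAC lists, a range that overlapped the 50.1% to 55.4% of the 8 pairs of an M-ATAC and an ATAC list. The M-ATAC lists thus fell into the pairs 1 with 2 and 3 with 4, and across those pairs they shared regions about as often as they did with ATAC.

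**Figure D1:**
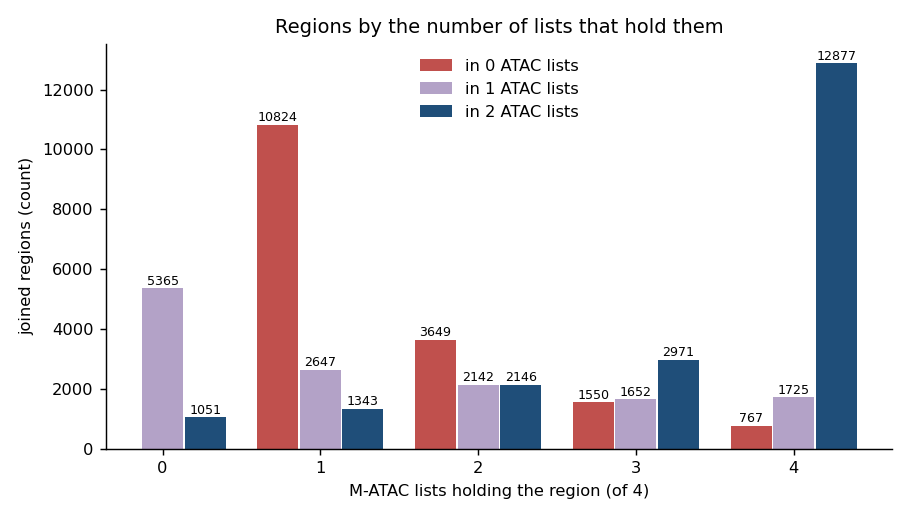
Number of joined regions (y axis, count) by how many of the 4 M-ATAC lists held them (x axis) and how many of the 2 ATAC lists held them (bar colour). The tallest bar is the 12877 regions in all 6 lists, and the classes held by 1 assay alone, 767 and 1051 regions, are among the shortest.

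The lists behind these classes differed in background. From the fold enrichment and p-value of each summit, the summit pileup and the genome-wide background could be recovered. The pileup counts reads or fragments over the summit and is given below as reads. The background was 0.305, 0.374, 0.496 and 0.421 reads per position in M-ATAC 1 to 4 and 1.28 and 1.42 in ATAC 1 and 2. The ATAC libraries thus had the higher background, and their lowest called summit held 8 reads, against 4 or 5 in M-ATAC. A background rises with the number of fragments and with their length, and the paper reports shorter reads after conversion. Neither the background nor a ratio to it therefore measures depth alone. Over the regions in all 6 lists the median summit pileup was 15, 19, 18 and 17 reads in M-ATAC and 20 and 24 in ATAC. Divided by the background, it was 49.2, 50.8, 36.3 and 40.4 in M-ATAC and 15.6 and 16.9 in ATAC, and the groups did not overlap.

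M-ATAC only regions had a median pileup of 9, 12, 10 and 10 reads in M-ATAC 1 to 4, and ATAC only regions 11 and 13 in ATAC 1 and 2. Relative to the median of the regions in all 6 lists, these were 0.6, 0.632, 0.556 and 0.588 for M-ATAC only and 0.550 and 0.542 for ATAC only. Both classes thus held weaker summits than the shared regions. This follows in part from the class rule, since a call in all 6 lists selects strong summits. The regions in none of these classes were about as weak, with medians of 8, 9, 9 and 9 reads in M-ATAC 1 to 4 and 12 and 13 in ATAC 1 and 2. Carried over by the ratio to shared regions, 1051 of 1051 ATAC only regions would have stood at or above the lowest called summit of each M-ATAC list. Carried over by the background instead, 76, 67, 300 and 138 of them would have done so in M-ATAC 1 to 4. M-ATAC only regions reached the lowest called ATAC summit in 733 and 766 of 767 cases by the former scale and in all 767 by the latter. The 1051 of 1051 on the former scale and the 767 of 767 on the latter were fixed in advance. On those scales even the lowest summit callable in its own assay would have passed. These counts therefore say nothing about the regions. Whether the other assay could have called them was not tested.

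The 9 values of each list were compared between the assays, with an exact permutation test over the 4 M-ATAC and 2 ATAC lists. With 15 splits of 6 lists the smallest two-sided p is 0.133, so no value could pass 0.05. The paper describes M-ATAC in these cells as done in duplicate, while the series holds 4 lists. The test and the SD count these 4 lists as independent, although they fell into pairs above. Both may therefore overstate the replication. The gene body share was 24.1%, 24.5%, 25.2% and 24.9% in M-ATAC 1 to 4 and 20.8% and 22.7% in ATAC. The groups did not overlap (24.7% ± 0.469, SD, n = 4, against 21.7% ± 1.27, SD, n = 2; exact permutation test, two-sided, p = 0.133, Benjamini-Hochberg adjusted 0.4). The median region width was 244, 249, 269 and 253 bp in M-ATAC and 374 and 385 bp in ATAC, again without overlap (exact permutation test, p = 0.133, adjusted 0.4). The share overlapping CTCF was 7.29%, 7.14%, 6.57% and 6.23% in M-ATAC and 7.40% and 8.24% in ATAC, all M-ATAC lists lying below both ATAC lists (exact permutation test, p = 0.133, adjusted 0.4).

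The other 6 values overlapped between the groups. The promoter share was 50.8%, 50.7%, 47.2% and 48.1% in M-ATAC and 53.6% and 50.4% in ATAC (exact permutation test, p = 0.4, adjusted 0.6). The median TPM of the nearest gene was 4.18, 4.89, 3.40 and 3.68 in M-ATAC and 3.48 and 2.80 in ATAC (exact permutation test, p = 0.267, adjusted 0.48), and the median CpG density was 2.21, 2.13, 1.80 and 1.84 CpG per 100 bp against 2.57 and 2.19 (exact permutation test, p = 0.267, adjusted 0.48). M-ATAC 1 and 2 were above M-ATAC 3 and 4 in promoter share, CTCF share, TPM and CpG density, so the replicates split here along the same pairs as in shared regions. The distal share differed by -0.106 percentage points, the median GC content by 0.445 and the number of regions by 856.5, each within the spread of the lists. The number of regions differed by -2420 without ATAC replicate 1 and by 4133 without ATAC replicate 2.

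**Figure D2:**
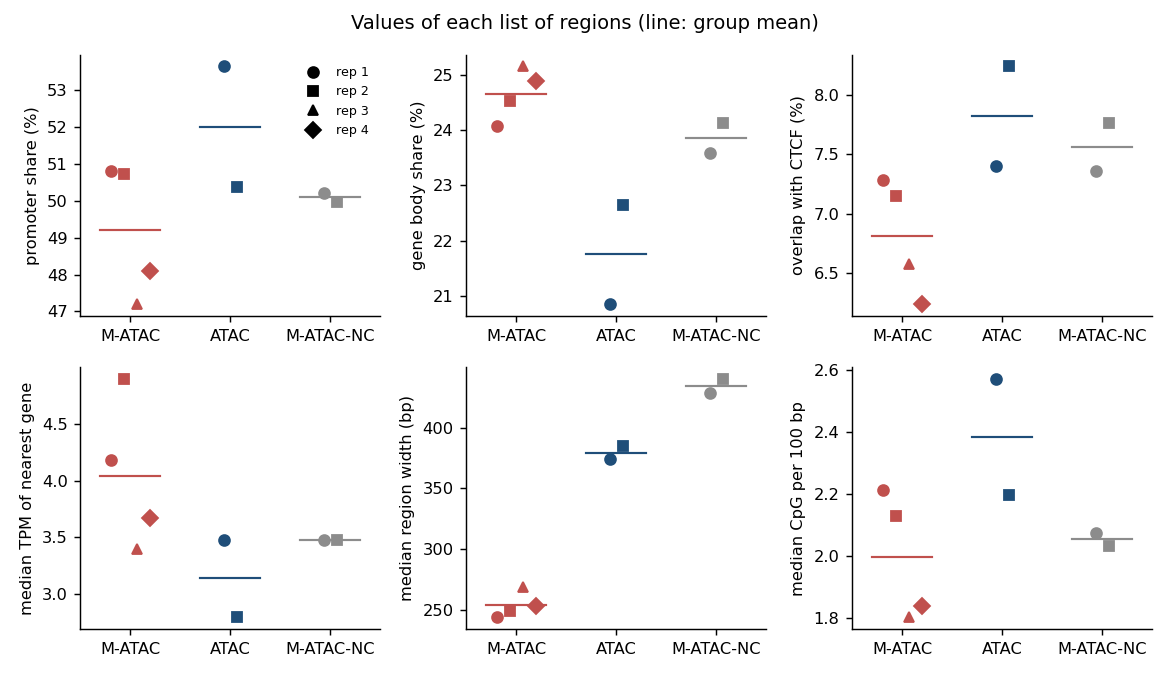
Promoter share, gene body share, overlap with CTCF, median TPM of the nearest gene, median width and median CpG density (y axes, with units) of each list, by group (x axis, symbols for replicates, lines for group means). Gene body share is higher in all 4 M-ATAC lists (24.1% to 25.2%) than in ATAC (20.8% and 22.7%), and width is lower (244 to 269 bp against 374 and 385 bp), while M-ATAC-NC regions are the widest (429 and 440 bp).

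Where the exclusive regions lay in the genome was asked next. A region was called promoter if any base of it lay within 3 kb of an annotated transcript start, gene body if it otherwise touched a gene, and distal if it did neither. Distances to a start are given from the midpoint of a region, so they can pass 3 kb for a promoter region. Of the regions in all 6 lists, 61.2% were promoters (95% Wilson interval 60.3% to 62.0%), against 39.6% (36.2% to 43.1%) of M-ATAC only and 47.1% (44.1% to 50.1%) of ATAC only regions. Gene bodies held 33.0% of M-ATAC only (29.7% to 36.4%), 20.7% of ATAC only (18.4% to 23.3%) and 17.5% of shared regions. Distal sequence held 27.4% of M-ATAC only, 32.2% of ATAC only and 21.3% of shared regions. Of the 36014 regions in none of these classes, 36.2% were promoters, 31.5% gene body and 32.2% distal, so the gene body share of M-ATAC only regions was near theirs and that of ATAC only regions was lower. These intervals cover counting error over regions only, since the regions of a class come from the same libraries.

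M-ATAC only regions thus exceeded ATAC only regions in gene bodies by 12.2 percentage points (95% interval 8.12 to 16.4). Within 1 kb in place of 3 kb of a start the excess was 17.5 points, and without ATAC replicate 1 it was 5.48. Without ATAC replicate 2 it was 6.39, and it was above 0 under every alternative tried. The promoter difference of -7.46 points (-12.0 to -2.85) turned to 0.282 without ATAC replicate 1 and went to -0.133 without ATAC replicate 2 and -13.4 without M-ATAC replicate 2. The distal difference of -4.78 points (-8.97 to -0.511) turned to 4.82 with M-ATAC 3 and 4 alone and to 0.0189 without M-ATAC replicate 2.

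CTCF overlap was counted against 23938 stretches covered by a peak in each of the 4 CTCF lists. It was found in 64 of 767 M-ATAC only regions (8.34%, 95% Wilson interval 6.59% to 10.5%), in 13.2% of ATAC only regions (11.3% to 15.4%, n = 1051) and in 888 of 12877 shared regions (6.90%, 6.47% to 7.35%), against 9.38% of the 36014 other regions. The order of the exclusive classes was the same in each CTCF list: 11.1% and 13.3% of M-ATAC only against 18.7% and 21.2% of ATAC only regions for CTCF ChIP 1 and 2, and 10.4% and 8.47% against 16.8% and 14.4% for CTCF M-ChIP 1 and 2. ATAC only regions were thus ahead with either adaptor type. The difference lay outside promoters. In gene bodies the shares were 6.72% and 16.1%, and in distal sequence 6.19% and 16.3%, whereas at promoters they were 11.2% and 9.90%.

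ATAC only regions were also wider, with a median of 444 bp against 303 bp for M-ATAC only and 630 bp for shared regions. When CTCF was counted at the position of the strongest summit alone, the difference of -4.88 points (95% interval -7.68 to -1.99) became 0.0947 (-2.24 to 2.55). It was 2.32 points at a stricter q-value and 0.134 with M-ATAC 1 and 2 alone. It was -2.68 without M-ATAC replicate 3 and -2.78 without M-ATAC replicate 4. The higher CTCF overlap of ATAC only regions was thus seen over whole regions and not at their strongest summits. A CTCF motif match inside a CTCF M-ChIP peak was held by 9.39% of M-ATAC only, 14.3% of ATAC only and 8.84% of shared regions.

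**Figure D3:**
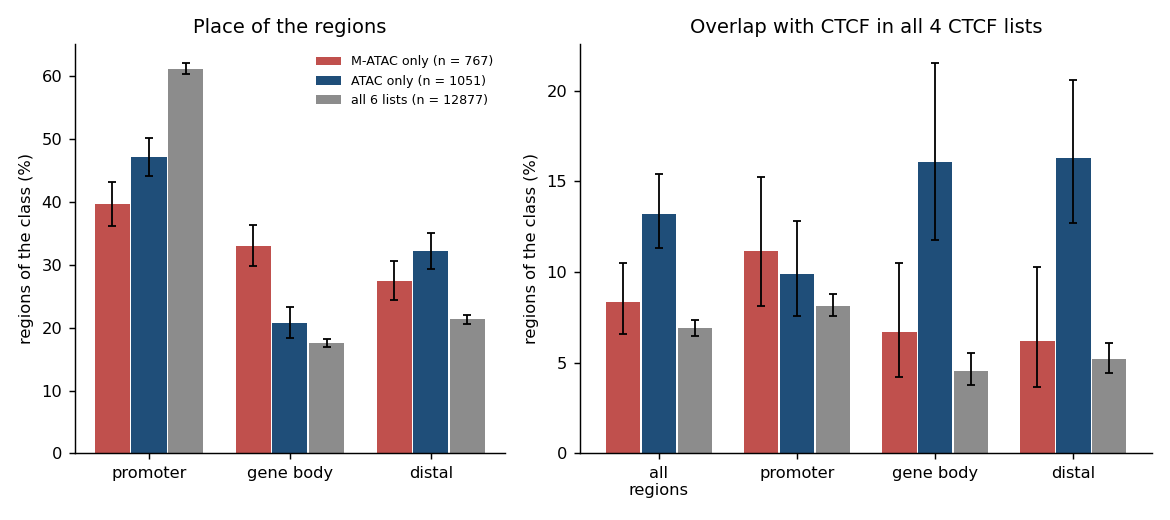
Left, percent of each class of regions (y axis) at promoters, in gene bodies and in distal sequence (x axis). Right, percent of each class overlapping CTCF in all 4 CTCF lists, over all regions and by place, with 95% Wilson intervals as error bars: in gene bodies 16.1% of ATAC only and 6.72% of M-ATAC only regions overlapped CTCF, at promoters 9.90% and 11.2%.

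Expression of the nearest gene differed between the exclusive classes. The median was 3.63 TPM for M-ATAC only regions (95% order-statistic interval 2.40 to 5.47), 0.190 TPM for ATAC only regions (0.12 to 0.27) and 7.91 TPM for shared regions (7.44 to 8.40). Among promoter regions the medians were 8.13, 0.990 and 15.4 TPM, among gene body regions 3.32, 0.115 and 1.29 TPM, and among distal regions 0.335, 0 and 0.0200 TPM. ATAC only regions had the lowest median in each place. The nearest gene was under 1 TPM for 61.5% of ATAC only, 39.9% of M-ATAC only and 33.7% of shared regions. It was so for 50.2% of the 36014 regions in none of these classes. Their median was 0.960 TPM, and 4.40, 1.19 and 0.0400 TPM at promoters, in gene bodies and in distal sequence. In each place M-ATAC only regions lay above these values and ATAC only regions below. The difference in medians between the exclusive classes was 3.44 TPM (2.13 to 5.35, set by the opposite ends of both medians' intervals). This difference was above 0 under every alternative tried. Its interval reached below 0 when genes of at least 1 TPM alone were used (2.57, -1.18 to 6.06). It was 2.18 without M-ATAC replicate 2, 1.08 with M-ATAC 3 and 4 alone and 9.24 with protein-coding genes alone.

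Counted by gene, the same regions and the same TPM values gave the same order, which is not separate support. Promoters of 343 genes overlapped an M-ATAC only region, with a median of 7.19 TPM (95% interval 5.09 to 9.08), and promoters of 597 genes overlapped an ATAC only region, with a median of 0.480 TPM (0.310 to 0.840). For the 9769 genes whose promoters overlapped a shared region the median was 11.25 TPM. Among promoter regions in both ATAC lists, the share in no M-ATAC list was 9.45% where the nearest gene was under 1 TPM, 4.44% from 1 to 10 TPM, 2.30% from 10 to 100 TPM and 1.13% from 100 TPM. It fell with each step in expression. The share in all 4 M-ATAC lists went from 53.9% to 66.6%, 76.2% and 77.6% over the same steps. In the reverse direction, of promoter regions in all 4 M-ATAC lists, 4.96%, 3.99%, 2.68% and 2.45% were in neither ATAC list.

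**Figure D4:**
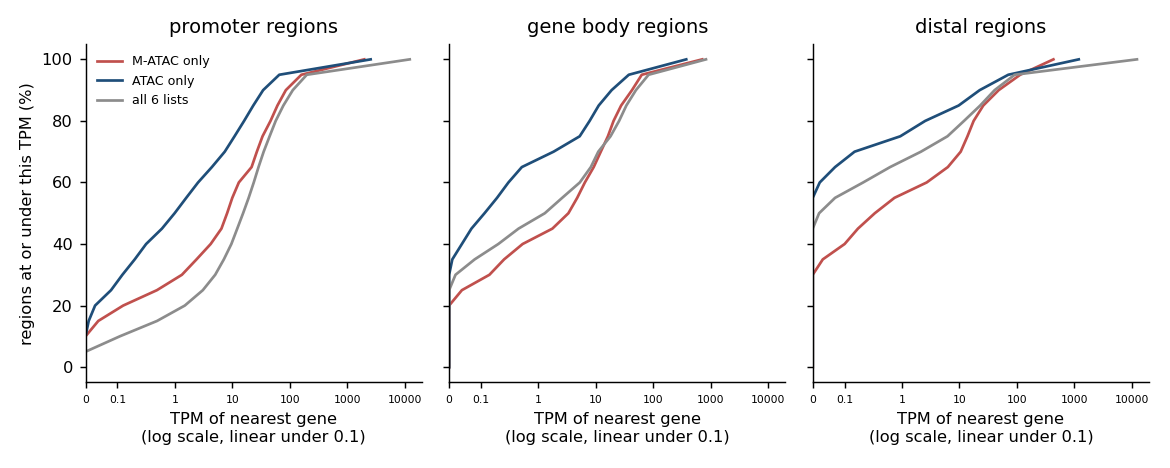
Percent of regions (y axis) whose nearest gene was at or under a given TPM (x axis, log scale, linear under 0.1), for promoter, gene body and distal regions of each class. The ATAC only curve lies highest over most of each panel, with medians of 0.990, 0.115 and 0 TPM, against 8.13, 3.32 and 0.335 TPM for M-ATAC only.

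Sequence composition, which the rule did not use, differed between the classes. Promoter regions held a median of 2.80 CpG per 100 bp in M-ATAC only (95% interval 2.07 to 3.27), 6.19 in ATAC only (5.62 to 6.88) and 7.14 in shared regions (7.06 to 7.23). Their median GC content was 56.8%, 61.8% and 62.1%. ATAC only promoter regions thus had CpG densities near those of shared ones, and M-ATAC only promoter regions lower ones. They also lay at unlike distances from the nearest start, with medians of 454.5 bp in M-ATAC only, 180 bp in ATAC only and 88 bp in shared regions. Promoter regions in none of these classes lay at 295 bp and held 3.83 CpG per 100 bp. Whether the classes differ in CpG density at equal distance was not tested. Outside promoters the order of GC content turned. In gene bodies it was 52.5% in M-ATAC only, 47.4% in ATAC only and 48.0% in shared regions, and distal M-ATAC only regions had 51.9% GC (50.8% to 52.7%) against 47.2% (46.3% to 48.1%) in ATAC only and 47.3% in shared regions. By CpG density, the share of regions in all 4 M-ATAC lists that neither ATAC list held was 7.51%, 7.47% and 7.48% in the bins under 1, 1 to 2 and 2 to 4 CpG per 100 bp, and 3.50%, 1.91% and 1.55% in the bins 4 to 6, 6 to 8 and 8 or more. In the reverse direction, of regions in both ATAC lists, 4.76%, 5.45%, 9.42%, 5.73%, 2.74% and 4.31% were in no M-ATAC list over the same bins, so this share was highest at 2 to 4 CpG per 100 bp.

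The authors' CpG table, in which M-ATAC replicates were merged, was read at CpGs with at least 5 reads. Such a CpG was found in 93.1% of M-ATAC only, 61.7% of ATAC only and 96.96% of shared regions. This share follows in part from the classes themselves, since the table covers M-ATAC peaks, and no test was made. By the paper's description these peaks were called on merged replicates. Thus 648 of 1051 ATAC only regions held a CpG of a merged M-ATAC peak, though no single M-ATAC list held them. The methylation values below describe only the regions with such a CpG. The median methylation of a region was 3.45% in M-ATAC only (95% interval 2.83% to 4.11%), 1.22% in ATAC only (0.855% to 2.00%) and 0.471% in shared regions. By place it was 1.07%, 0.458% and 0.277% at promoters, 6.90%, 9.09% and 3.67% in gene bodies and 6%, 10.9% and 4.50% in distal sequence. Pooled over reads the exclusive classes lay closer, at 3.55% in M-ATAC only, 3.19% in ATAC only and 0.739% in shared regions, and at promoters at 1.69%, 1.60% and 0.420%. These rest on 120629 reads in 714 M-ATAC only and 57897 reads in 648 ATAC only regions. Regions at or above 50% methylation were few, 14 of 714 M-ATAC only, 29 of 648 ATAC only and 95 of 12485 shared regions. Among regions in none of these classes it was 1430 of 26272 (5.44%), against 1.96% of M-ATAC only and 4.48% of ATAC only. Their median was 5.26% and their pooled methylation 3.81%. Over all places both exclusive classes thus lay below the other regions and above the shared ones. At promoters the median of the other regions, 0.763%, lay between the exclusive classes.

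The 6 strongest M-ATAC only regions, ranked by the fold enrichment in the list where it was lowest, are described by their values. The first, on chr6 as printed above, had fold enrichments of 22.6, 19.4, 28.9 and 23.0 in M-ATAC 1 to 4, with no peak in ATAC or M-ATAC-NC. It lay in distal sequence, 18320 bp from the nearest start, that of Gm43980 (7.80 TPM). The second, on chr7 as printed, lay in an intron of Fgfr2, which encodes a fibroblast growth factor receptor, and had 21.5, 21.7, 24.1 and 18.5, also with no peak in ATAC or M-ATAC-NC. Of the first region's 136 overlapping stretches of 25 bases, 111 also occurred, on either strand, in the region in all 6 lists at chr12:78350870-78351174, in an intron of Gphn (gephyrin, an anchor of inhibitory synapse receptors). Of the second region's 122 stretches, 60 did. The chr12 region had fold enrichments of 36.7, 36.4, 40.5 and 41.9 in M-ATAC and 27.7 and 24.5 in ATAC.

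The third, chr7:11384518-11384943, overlapped the promoter of Gm45598 with fold enrichments of 15.2, 20.96, 15.7 and 13.4, and the nearest gene in the expression table was Zscan4f (1.73 TPM), a gene of the 2-cell embryo. The fourth, chr1:191120972-191121166, was distal, with 14.6, 12.8, 17.7 and 16.1. The fifth, chr5:118413507-118413714, was also distal, with 11.9, 11.8, 12.8 and 13.3, and was the only region of the 6 with a peak in M-ATAC-NC, a fold of 4.5 in replicate 1. The sixth, chr4:80003667-80004063, lay at the pseudogenes Gm11408 (975 TPM) and Gm11410 (1608 TPM), with 12.0, 11.2, 11.0 and 11.2. Over windows of 50 bases at and beside the summit, an exact further copy was present in the genome for the first, the third and the sixth. With every C read as T, the windows occurred at up to 3, 3, 2, 9, 1 and 2 places for the first to the sixth, the region itself included.

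The same window count was made for every region. A further exact copy was found for 7.56% of M-ATAC only, 5.23% of ATAC only and 4.33% of shared regions, and with C read as T for 13.8%, 10.8% and 9.32%. The exclusive classes differed by 3.07 points with C read as T (95% interval 0.0368 to 6.21). Copies that arose only when C was read as T were found for 6.26% and 5.52%, a difference of 0.740 points (-1.42 to 3.04). A match of 25 bases to the mitochondrial genome was found in 3 of 767 M-ATAC only regions, chr2:22587631-22588402, chr4:80003667-80004063 and chr10:96077550-96077873, in 2 of 12877 shared regions and in 0 of 1051 ATAC only regions, which allows a share of up to 0.285%. None of the 3 had a peak in M-ATAC-NC. Without the regions that had such a copy or match, 661 M-ATAC only and 938 ATAC only regions were left, the gene body difference was 12.6 points and the TPM difference 3.95. The part of repeated sequence in the strongest regions was otherwise not tested.

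The 6 strongest ATAC only regions had fold enrichments of up to 10.1. Fold enrichments were lower in ATAC at shared regions too, with medians over regions in all 6 lists of 6.51 and 7.03, against 9.15, 10.1, 8.90 and 8.86 in M-ATAC. M-ATAC-NC had a peak at 4 of these 6 regions and at 1 of the 6 strongest M-ATAC only regions. The first, chr1:68304462-68304946, lay in an intron of Erbb4, which encodes a neuregulin receptor, with 10.1 and 9.9 in ATAC 1 and 2 and a TPM of 0.0200 for that gene. The second, chr18:22325058-22325441, was distal, nearest to Asxl3, with 7.9 in both lists, and its summit windows occurred at up to 19 places in the genome. The third, in Pld5 at chr1:176028540-176029599, had 7.6 and 8.4 and was also held by both M-ATAC-NC lists, at 5.9 and 6.4. The fourth, at the promoter of Nudt12 (a pyrophosphatase that acts on NADH), chr17:59012837-59013437, had 7.9 and 7.5 and no peak in M-ATAC-NC. The fifth, chr3:92118001-92118211, overlapped CTCF and had 9.0 and 7.3. The sixth, chr1:159293591-159293954, lay in Cop1 (Rfwd2 in the expression table, an E3 ubiquitin ligase), with 7.2 and 7.0. None of the 6 lay near a gene with a TPM above that of Rfwd2, 51.6.

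**Figure D5:**
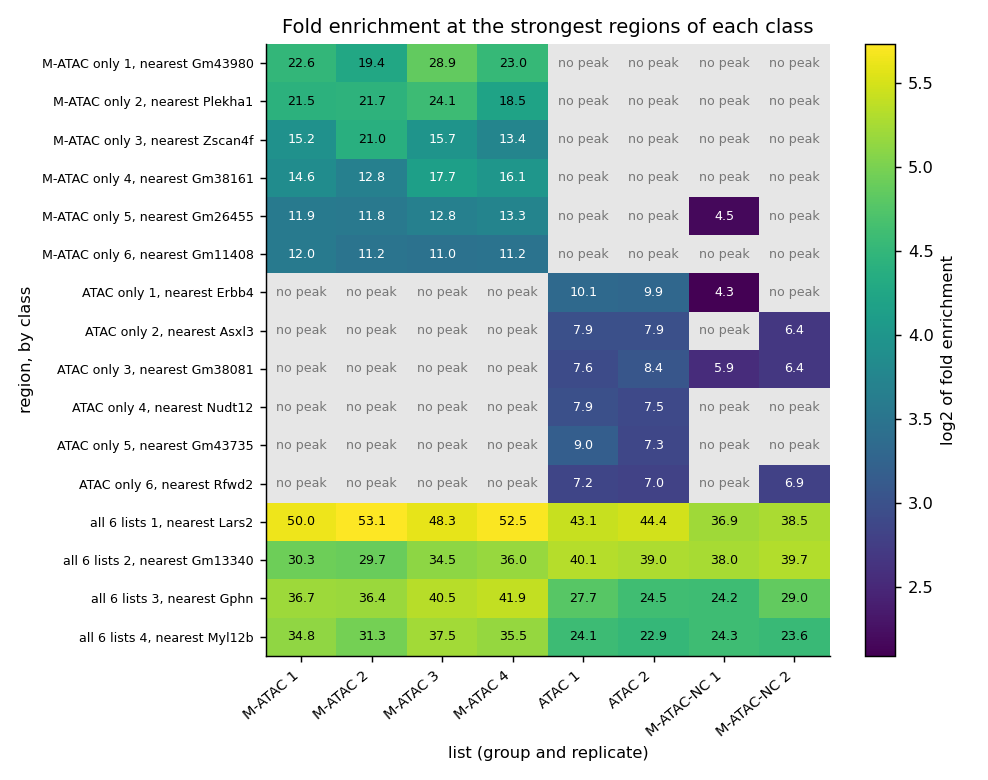
Fold enrichment (numbers, colour on a log2 scale) of the 6 strongest regions of each exclusive class and the 4 strongest regions in all 6 lists (y axis, with the nearest gene in the expression table) in each list (x axis). Grey cells are lists with no peak that overlaps the region. The M-ATAC only regions reach 28.9 and the ATAC only regions 10.1, while the Lars2 region stands between 36.9 and 53.1 in all 8 lists.

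The strongest regions in all 6 lists were high in both assays. The region in Lars2, which encodes the mitochondrial leucyl-tRNA synthetase, at chr9:123461798-123462185, had 49.98, 53.1, 48.3 and 52.5 in M-ATAC and 43.1 and 44.4 in ATAC. The region at the pseudogene Gm13340, chr2:22588532-22590014, had 30.3, 29.7, 34.5 and 36.0 against 40.1 and 39.0, so here ATAC was higher. It shared 907 stretches of 25 bases with the mitochondrial genome. The fourth, chr17:70963666-70963895 near Myl12b (a regulatory myosin light chain), had 34.8, 31.3, 37.5 and 35.5 against 24.1 and 22.9. The summit windows of these regions were not unique in the genome. They occurred at up to 3 (Lars2), 2 (Gm13340), 4 (Gphn) and 3 (chr17) places, and at up to 5, 2, 5 and 5 with C read as T. Of the Lars2 region's 364 stretches of 25 bases, 113 also occurred in the Gphn region and 49 in the chr17 region. How much of their height came from these loci themselves was not tested.

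Genes with the highest TPM whose promoters overlapped an exclusive region were named by rule. For M-ATAC only these were the pseudogenes Gm13340 (10030 TPM) and Gm13339 (3869 TPM), which share the region at chr2:22587631-22588402, then Rpl11, Gm11410, Set and Gm11408. The region of Rpl11 (1983 TPM), which encodes a large-subunit ribosomal protein, lay at chr4:136031541-136031851, 2898 bp from a start, with 6, 6, 6 and 7 reads at the summit in M-ATAC 1 to 4. The region of Set (1412 TPM), a histone chaperone, lay at chr2:30061807-30062149, 125 bp from a start, with 16, 13, 11 and 12 reads, and overlapped peaks of M-ATAC-NC 1 and 2 with fold enrichments of 5.58 and 3.74. The summits at Rpl11 were thus close to the lowest that could be called. The regions of Gm13340 and of Set stood beside a region in all 6 lists at the same promoter.

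For ATAC only the genes were Eef1a1, Rpl17, Rpl23, Rps15a, Snrpf and Tmsb4x. The region of Eef1a1 (12296 TPM), the translation elongation factor, lay at chr9:78475978-78476999, 3012 bp from a start, and the gene's promoter also overlapped a region in all 6 lists. The regions of Rpl17 (2567 TPM), Rpl23 (2435 TPM) and Rps15a (1122 TPM), all ribosomal protein genes, lay 15, 31 and 109 bp from a start, with 16 and 15, 11 and 9, and 12 and 12 reads in ATAC 1 and 2. Rpl23 had a second region, 1501 bp from a start, that overlapped CTCF. The region of Snrpf (381 TPM), a spliceosome protein, had 9 and 14 reads, and that of Tmsb4x (361 TPM), which binds actin monomers, 11 and 25. Both M-ATAC-NC lists had a peak that overlapped the regions of Eef1a1, Rpl17, Snrpf and Tmsb4x and the start-near region of Rpl23. At Rps15a 1 list did, and at the CTCF region of Rpl23 0 lists.

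No gene gathered many exclusive regions. The most M-ATAC only regions nearest to a gene was 2, for 19 of 748 genes, among them Btbd11, Camk2g and Dst. The most ATAC only regions was 3, for 4 of 987 genes, among them Cox7a2l (327 TPM), Sema3a (0.510 TPM), a guidance cue of axons, and Opcml (0.190 TPM), a cell adhesion gene. The regions were spread over the chromosomes, with 56 M-ATAC only and 45 ATAC only regions on chromosome 11, 28 and 80 on chromosome 9, and 14 and 26 on X.

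Marker genes were read in promoters and in expression, over 47187 genes with a TPM and a transcript start. Of all these genes, 0.727% had a promoter overlapping an M-ATAC only region, 1.27% an ATAC only region and 20.7% a region in all 6 lists, and 21.2% had a promoter peak in each of the 6 lists and 58.5% in none. Of 15 mESC markers, with 95.1 to 5394 TPM, 9 had a promoter peak in each list, 7 a region in all 6 lists, and 0 an exclusive region. Among them, Pou5f1 (657 TPM), Esrrb (296 TPM) and Zfp42 (229 TPM), which encode pluripotency factors, had a promoter peak in every list, while Nanog (461 TPM) had one in 1 M-ATAC and 1 ATAC list and Sall4 (112 TPM) in 3 M-ATAC lists and no ATAC list. Of 14 feeder fibroblast markers, 0 had a promoter peak in each list, 0 had an exclusive region and 4 had no promoter peak, with 0.08 to 48.7 TPM. Col1a1, the fibroblast collagen, stood at 48.7 TPM. In bulk samples fewer cells of a type and less RNA per cell cannot be told apart.

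The other lists held few exclusive promoters. Of 15 housekeeping genes, 14 had a promoter peak in each list and 1, Eef1a1, an ATAC only region. Of 16 germline genes, 2, Dazl and Brdt, had a peak in each list and 4 had none. Of the 11 2-cell genes with a TPM and a start, 10 had no promoter peak. Of 20 lineage transcription factors, 4, Neurod1, Neurog1, Pax6 and Sox17, had a peak in each list and 6 had none. Olig2 (9.64 TPM), a factor of oligodendrocyte and motor neuron fate, had an M-ATAC only region at chr16:91225294-91225744, with fold enrichments of 8.5, 11.0, 5.0 and 10.03, and peaks of M-ATAC-NC 1 and 2 overlapped it with 8.94 and 5.30. This 1 of 20 genes stands against the share of 0.727% over all genes and is given as a description, since the list was chosen with earlier results known.

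M-ATAC-NC carries the methylated adaptors but not the conversion. It was kept from the same tagmented DNA as M-ATAC, so its overlap with M-ATAC only regions is not that of independent libraries. How much of the overlap came from the shared DNA was not tested. M-ATAC-NC 1 and 2 held 54.4% and 67.01% of M-ATAC only regions, 46.3% and 53.0% of ATAC only regions, and 96.2% and 98.5% of shared regions. Both lists held 44.2% of M-ATAC only (95% Wilson interval 40.7% to 47.7%) and 33.0% of ATAC only regions (30.2% to 35.9%), and neither held 22.8% and 33.7%. The 339 M-ATAC only regions held by both M-ATAC-NC lists were compared with the 354 ATAC only regions held by neither. The gene body difference was 10.8 points (95% interval 4.03 to 17.4) and the CTCF difference -15.3 points (-20.3 to -10.3). The TPM difference was 4.59 (2.12 to 7.13, set by the ends of both medians' intervals). The promoter difference was 3.43 points (-3.82 to 10.6), of the opposite sign to that over all exclusive regions.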

How the data were processed

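M-ATAC (4 samples), ATAC (2 samples) and M-ATAC-NC (2 samples) of KH2 mouse embryonic stem cells were compared through their peak lists. Per the labels' processing notes and the study's methods, reads were trimmed with Trim Galore 0.4.4, aligned to mm10 with Bismark 0.18.1 (M-ATAC) or bowtie2 (ATAC), filtered with SAMtools 1.3, and peaks were called per sample with MACS2 at q 0.01. The aligner of M-ATAC-NC is not given in the sources used here. The deposited lists give per summit a ratio (fold enrichment over local background) and, both as −log10, the p-value and the q-value. The authors' methylation table gives a count of methylated and of unmethylated reads and a percent per CpG, over merged M-ATAC replicates. The deposited motif table, with a FIMO score and p-value per match, was read for the positions of CTCF motifs. The authors' expression table gives TPM merged over replicates, with no error.

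Summits with the same bounds were reduced to 1 region, and regions of the 6 lists overlapping by at least 1 bp were joined. Places came from GENCODE M21 (3 kb either side of a transcript start), and nearest genes from the 47187 of 47606 table genes with a start there. Summit pileups were recovered for 99.99% of summits. GC content, CpG density and copies of windows of 50 bases, 3 per region, came from GRCm38. The exact permutation test (scipy 1.17.1) had Benjamini-Hochberg adjustment over 9 values. Wilson and order-statistic intervals are at 95%, and those of differences in shares are Newcombe's. The interval of a TPM difference was set by the opposite ends of both medians' intervals, so it is not itself a 95% interval. Steps were checked on simulated data. Regions and genes were named by rank of fold or TPM, or from marker lists. The members and lists were chosen with earlier results of these data known. The KLF4 samples were not used. A result for 1 gene of a marker list is not reported here.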

Additional observations from a re-analysis of the deposited data

How the results depend on the processing

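Of 229 values under alternatives, 19 changed sign and 31 moved by over 1.5 times (counts of regions in a class) or outside the interval given above (differences between classes). The other 179 did not, but values per list were held to their sign alone, and some changed much in size. Where not stated, the cause was not tested. Alternatives on unconverted lists, CTCF at the summit, copies and mitochondrial matches were chosen after seeing the data. With fewer or stricter lists the classes change by construction. At a −log10 q of 5 or more there were 856 M-ATAC only and 616 ATAC only regions, so the order of the class sizes turned, and the CTCF difference was 2.32. At equal list length it was -1.29, and the list distal difference 0.00726. With 50% of a joined region covered, there were 3526 ATAC only regions and 4771 in all 6 lists, and the promoter, distal, CTCF and TPM differences were -15.8, 1.296, -1.08 and 2.09. With M-ATAC 3 and 4 alone, there were 2307 and 1909 exclusive regions, the promoter, gene body, distal and TPM differences were -21.8, 17.0, 4.82 and 1.08, and the list distal and GC differences 1.10 and -0.445. With M-ATAC 1 and 2 alone, there were 2913 and 2715 exclusive regions and the CTCF difference was 0.134. With promoters of 1 kb, the promoter and gene body differences were -14.4 and 17.5 and the list distal difference 0.329. It was 0.00851 with protein-coding transcripts. With protein-coding genes the TPM difference was 9.24. With CTCF at the strongest summit its difference was 0.0947. With every summit counted, the number per list differed by -2349.25. With classes also set by the unconverted lists, there were 339 and 354 regions and the promoter, distal and CTCF differences were 3.43, -14.2 and -15.3.

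Leaving out each list in turn gave 946 to 2149 M-ATAC only regions, 1313 to 5023 ATAC only regions and 13213 to 14243 in all 6 lists. The class differences ran from -13.4 to 0.282 (promoter), 5.48 to 14.1 (gene body), -6.25 to 0.0189 (distal), -4.95 to -2.68 (CTCF) and 2.18 to 4.80 TPM. Between lists, the number differed by -2420 to 4133, the distal share by -0.834 to 0.622 and the GC content by -0.0636 to 0.953.

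Replicates 1 and 2 share a number across groups, but the labels do not tie it to a batch. With the replicate block (2 pairs), the differences were 424 regions, -1.24 (promoter), 2.55 (gene body), -1.31 (distal), -0.607 (CTCF), 1.40 TPM, -133 bp, 1.33 (GC) and -0.212 (CpG), and the smallest exact p for 2 pairs is 0.5. Equal list length gave no value for the number of regions. The M-ATAC lists had the lower background, which may mean fewer or shorter fragments. Whether regions missing from an M-ATAC list lay under what its depth can call was not tested.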
